A study of Rattus norvegicus with 6 samples.

Results

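The cytochromes P450 of families 1 to 4 are heme enzymes of the endoplasmic reticulum that oxidise drugs, pollutants, steroids and fatty acids. In liver many of them are set by receptors that sense foreign or endogenous ligands: AHR for Cyp1a, CAR for Cyp2b, PXR for Cyp3a and PPARA for Cyp4a. In rats a further group, with Cyp2c11 and Cyp2c12 as its best known members, differs between males and females under the control of growth hormone. The members described here are the rat genes named Cyp, a family digit from 1 to 4, a subfamily letter and a number, wherever a probe on the array carries a RefSeq accession of that gene. Of 78 such genes in RefSeq, 52 had a probe, among 15284 named genes on the array, and 26 had none, 15 of them listed as protein coding and 11 as pseudogenes. The 52 genes were read by 90 probes.

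Liver RNA of 6 male Sprague-Dawley rats, bought at an age of 5 weeks, was read on 1 single-colour Agilent array per rat. The 3 treated rats received nitrilotriacetic acid trisodium monohydrate (NTA), a chelator of metal ions, at 1000 mg/kg/day, and the other 3 received vehicle only. The labels call the vehicle purified water in one place and corn oil in another, and they place sampling at 28 days or after 9 weeks. Values are log2 signals relative to the 75th percentile of the array, so that a gene at 0 sits at that percentile, and each gene is given by its brightest probe. Values belong to a probe, and levels of different genes were not compared.

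Of the 52 genes, 46 passed the filter, which asked for a signal well above background throughout the 3 arrays of either group, and were tested. Of these, 45 were above background on all 6 arrays. Cyp1a1 and Cyp1b1, dioxin-inducible enzymes of family 1, and Cyp2a3 and Cyp2g1 were not well above background on any array. Cyp2j10 was above it on 1 vehicle array and 2 NTA arrays, and Cyp4x1 on 1 vehicle array with 1 of its probes. Cyp4f18 passed through the NTA group, where it was above background on 3 arrays, against 1 array with vehicle.

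The arrays were alike in detection, with 62.4% to 64.5% of probes well above background. Vehicle replicate 3 was scanned on another day and on a slide of its own, and its median local background was 40 against 54 to 61 on the other arrays. All NTA arrays shared 1 slide that held no vehicle array, so an effect of the slide and one of NTA cannot be told apart. Hepatocyte markers such as Alb were measured for 10 of 10 genes, and 0 of 3 exocrine pancreas markers, 1 of 3 kidney markers and 2 of 3 intestinal markers were.

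No P450 of these families changed past the threshold. In limma, 0 of 46 members had a Benjamini-Hochberg adjusted p under 0.05, where 0.0297% of all 30353 features did, every one higher with NTA, and the members' adjusted p ran from 0.558 to 0.997. At an unadjusted p under 0.05 there were 2 members, or 4.35% of those tested, against 7.57% of all features. Of these members 1 was higher, where 3.66% of all features were, and 1 was lower, where 3.91% were. The groups did not overlap for 3 members, 6.52%, against 13.6% of all features. Here 1 member was higher with NTA, Cyp4f5, where 5.57% of all features were, and 2 were lower, Cyp4f17 and Cyp2d2, where 8.03% were. Differences between the group means, NTA minus vehicle, ran from −0.56 to 0.84 on the log2 scale with a median of 0.02, against −0.03 over all features. They were above 0 for 25 members and below 0 for 21, and 43.9% of all features lay above 0.

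A missed threshold does not show that a gene stayed the same, so the 95% intervals of the differences were read as well. For 36 of the 46 members the interval lay within a 2-fold change in either direction, and 86.9% of all features met the same limit. For the other 10 members it reached 2-fold or beyond. These were Cyp1a2, Cyp2b2, Cyp2c12, Cyp2c22, Cyp2s1, Cyp3a23-3a1, Cyp4a2, Cyp4a8, Cyp4b1 and Cyp4f5. In 33 members the difference was smaller than the pooled standard deviation between rats of a group. The median of that standard deviation was 0.22 over the members and 0.19 over all features. In RNA of a whole organ, fewer cells of a type and less RNA per cell cannot be told apart.

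**Figure D1:**
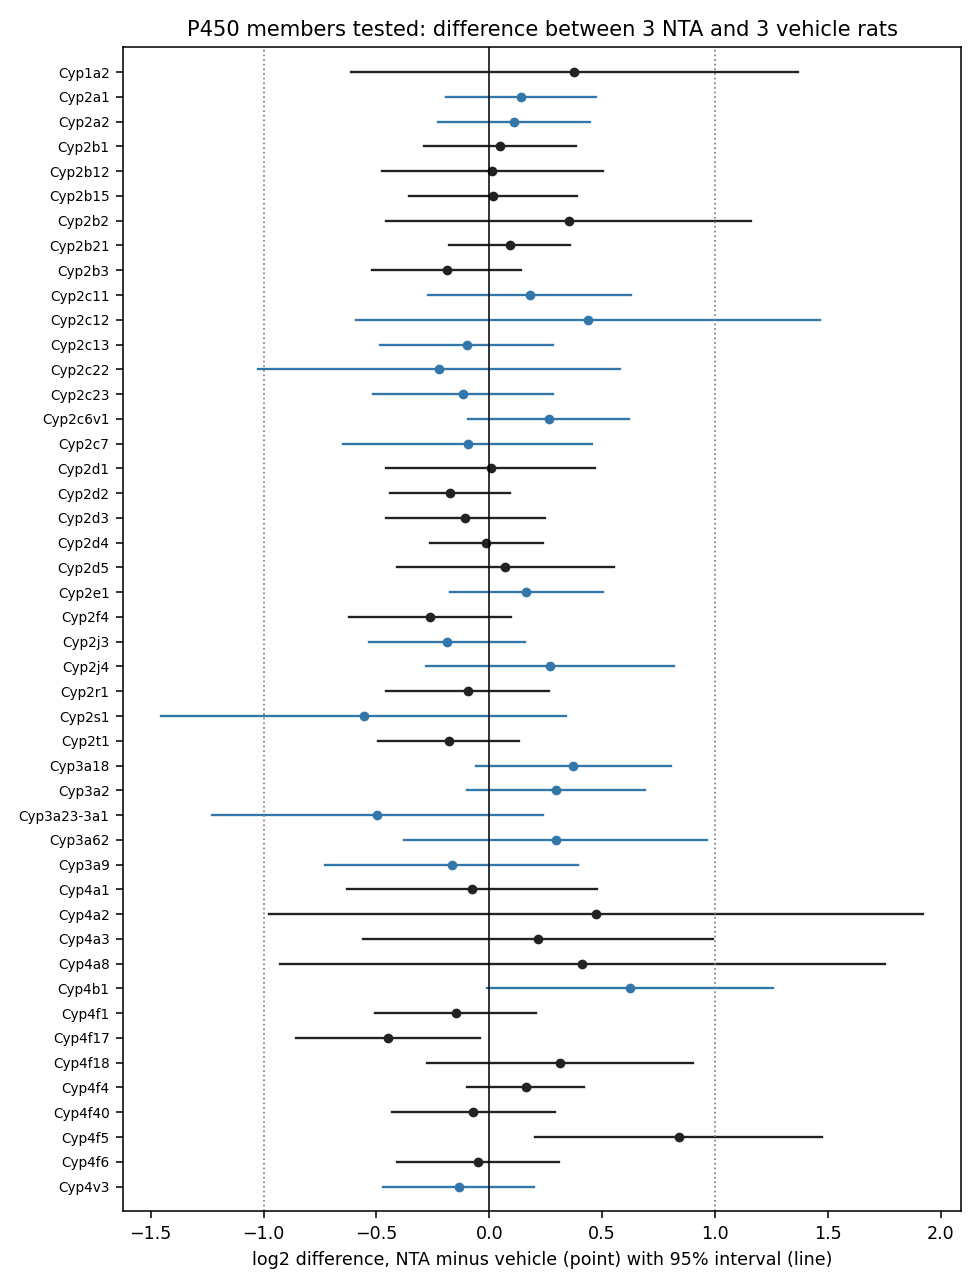
Log2 difference between the 3 NTA and the 3 vehicle rats for each of the 46 members tested (points), with the 95% interval from limma (lines). Colours alternate between subfamilies, dotted lines mark a 2-fold change, and only the intervals of Cyp4f5 and Cyp4f17 leave out 0.

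Family 1 was represented by Cyp1a2, the AHR-induced enzyme that oxidises caffeine and aromatic amines. It stood at 5.33, 5.36 and 4.65 in the vehicle rats and at 5.15, 4.92 and 6.40 in the NTA rats. NTA replicate 3 was the highest array and vehicle replicate 3 the lowest, while the other 4 lay between them, so the groups overlapped. The difference was 0.38 (SE 0.41; limma, Benjamini-Hochberg adjusted p = 0.86), with a 95% interval of −0.61 to 1.37. Without NTA replicate 3 it was −0.08. The second probe of Cyp1a2 gave 0.34.

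The AHR targets outside the P450s that could be measured, 5 of 7 listed, included 0 genes past the threshold and 0 at an unadjusted p under 0.05 in limma. Gsta2, a glutathione transferase, had a difference of 0.30, the glucuronosyltransferase Ugt1a6 0.26 and Nfe2l2, which encodes NRF2, −0.33.

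The Cyp2a enzymes hydroxylate testosterone in rat liver. Cyp2a1 stood at 4.78, 4.83 and 4.44 with vehicle and at 4.90, 4.85 and 4.71 with NTA. Its groups overlapped, and its difference of 0.14 (SE 0.14) had an interval of −0.19 to 0.47. The other probe of Cyp2a1 above background gave −0.15, so the probes differed in sign. Cyp2a2, the male-specific member, gave 0.11 (SE 0.14).

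Cyp2b1 and Cyp2b2 are the phenobarbital-inducible pair of rat liver, a classic readout of the receptor CAR. They are close copies that lie near each other in the rat genome, with 1 annotated gene between them. Their upstream sequences are printed because the genes look alike there while their brightest probes did not vary alike. Each is the stretch before the outermost start RefSeq gives the gene, within 250 bases, in assembly GRCr8. That of Cyp2b1 is chr1:90645869-90646097 and that of Cyp2b2 is chr1:90722031-90722242, both on the plus strand. Capitals mark bases that differ between them in a global alignment, 8 of 212 aligned columns, which is an identity of 96.2%.
Cyp2b1: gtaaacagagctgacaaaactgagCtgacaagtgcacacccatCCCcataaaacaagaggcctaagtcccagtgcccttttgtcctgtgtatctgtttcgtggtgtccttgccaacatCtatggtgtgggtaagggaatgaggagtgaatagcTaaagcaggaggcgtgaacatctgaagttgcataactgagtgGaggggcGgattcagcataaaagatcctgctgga
Cyp2b2: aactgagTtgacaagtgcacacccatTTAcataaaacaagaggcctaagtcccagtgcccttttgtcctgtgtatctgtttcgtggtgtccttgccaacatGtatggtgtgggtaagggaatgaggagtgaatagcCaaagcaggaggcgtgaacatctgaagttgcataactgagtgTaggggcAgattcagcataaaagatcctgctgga

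Cyp2b1 stood at 4.14, 4.01 and 4.22 in the vehicle rats and at 4.36, 3.95 and 4.21 in the NTA rats. The highest and the lowest array both belonged to the NTA group. The difference was 0.05 (SE 0.14; limma, Benjamini-Hochberg adjusted p = 0.96). The interval ran from a 0.819-fold to a 1.31-fold level. Cyp2b2 stood at 5.18, 5.05 and 6.20 with vehicle and at 6.23, 5.63 and 5.63 with NTA. Vehicle replicate 3 and NTA replicate 1 were the highest arrays, and vehicle replicates 1 and 2 the lowest. The difference was 0.35 (SE 0.34; limma, Benjamini-Hochberg adjusted p = 0.84, interval −0.46 to 1.16). It was 0.72 without vehicle replicate 3, 0.14 without vehicle replicate 2, 0.15 without NTA replicate 1 and 0.20 without vehicle replicate 1.

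The 6 arrays spanned 1.18 on the brightest Cyp2b2 probe and 0.41 on the probe of Cyp2b1. Cyp2b2 had 5 probes above background, and their differences ran from 0.05 to 0.97. On the probe with the smallest difference the arrays lay close, at 4.08, 4.19 and 4.54 with vehicle and 4.49, 4.17 and 4.28 with NTA. On the probe with the largest difference the values were 1.42, 0.32 and 2.80 with vehicle and 2.97, 2.13 and 2.34 with NTA. The second probe of Cyp2b21 gave −3.07, −4.50 and −1.55 with vehicle and −1.49, −2.34 and −2.14 with NTA. It placed the arrays in the order that the brightest probe of Cyp2b2 gave. The brightest probe of Cyp2b21 did not show that spread, with differences of 1.05 and 0.09 on the dimmer and the brighter probe. Whether probes of these close copies read each other's transcripts was not tested.

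The remaining Cyp2b genes differed little between the group means. Cyp2b3, an enzyme that phenobarbital does not induce, stood at 8.46, 8.90 and 8.76 with vehicle and at 8.52, 8.52 and 8.52 with NTA. The NTA rats lay within the span of the vehicle rats. Its difference was −0.19 (SE 0.14), and the difference was 0.01 for Cyp2b12 and 0.02 for Cyp2b15. A second, dim probe of Cyp2b15 above background gave −0.30.

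**Figure D2:**
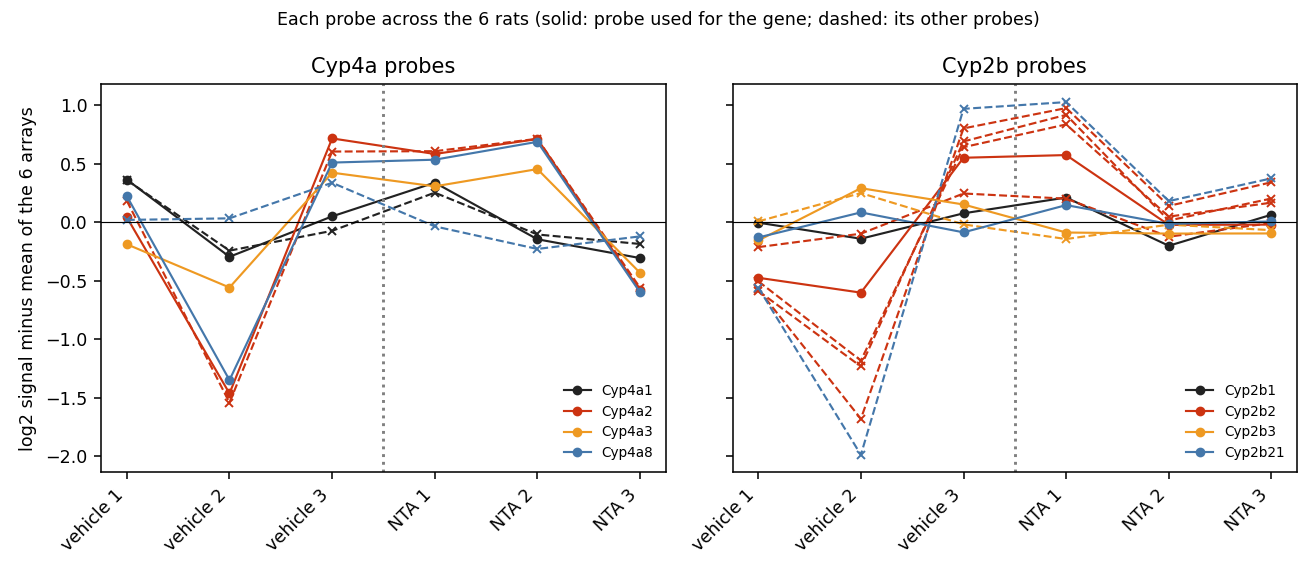
Each probe of the Cyp4a genes and of Cyp2b1, Cyp2b2, Cyp2b3 and Cyp2b21 that was well above background on all 6 arrays, as log2 signal minus its mean over the arrays (vertical axis), for the 6 rats (horizontal axis). Lines only link values of 1 probe, solid for the probe used for a gene and dashed for its other probes; vehicle 2 is lowest for Cyp4a2, Cyp4a3 and the brightest Cyp4a8 probe, and vehicle 1 and vehicle 2 are lowest for the brightest Cyp2b2 probe.

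Cyp2c holds the sex-dependent enzymes. Cyp2c11, the male-specific testosterone hydroxylase, stood at 8.25, 8.45 and 8.91 with vehicle and at 8.60, 8.86 and 8.68 with NTA. All 3 NTA values lay within the span of the vehicle values. The difference was 0.18 (SE 0.19; limma, Benjamini-Hochberg adjusted p = 0.85, interval −0.27 to 0.63).

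Cyp2c12, known as the female-specific steroid sulfate hydroxylase, was above background in these males, at 4.01, 4.25 and 5.62 with vehicle and 5.08, 5.38 and 4.73 with NTA. Vehicle replicate 3 was the highest array, and vehicle replicates 1 and 2 were the lowest. The difference was 0.44 (SE 0.43; limma, Benjamini-Hochberg adjusted p = 0.85, interval −0.59 to 1.47). It was 0.94 without vehicle replicate 3, 0.13 without vehicle replicate 1, 0.25 without vehicle replicate 2 and 0.28 without NTA replicate 2. Only 1 probe was matched to Cyp2c12, and whether it reads a close copy was not tested.

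Of the other Cyp2c genes, the male-specific Cyp2c13 had a difference of −0.10 and Cyp2c23, which makes epoxides of arachidonic acid, −0.12. Cyp2c6v1 was at 0.26 (SE 0.15), with NTA replicate 1 highest, and its second probe gave 0.22. Cyp2c7, a female-predominant enzyme that also acts on retinoic acid, was at −0.10, and all 6 of its probes lay between −0.22 and −0.08. In Cyp2c7 vehicle replicate 2 was the highest array, at 9.49 against 8.70 to 9.14. Cyp2c22 spanned 1.27 over the arrays, from 1.58 to 2.85, and differed by −0.22 (SE 0.33).

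The growth hormone axis and sex-dependent genes outside the P450s gave 0 calls among 11 genes in limma, with 1 lower at an unadjusted p under 0.05. That gene was Igfals, which encodes the binding partner of circulating IGF1, at −0.44 (SE 0.17; limma, Benjamini-Hochberg adjusted p = 0.62). Mup4, a major urinary protein, was at −0.17 and A1bg at −1.11 (SE 0.78).

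Cyp2d enzymes oxidise many basic drugs and Cyp2e1 oxidises ethanol and acetone. The Cyp2d genes lay close to 0, from −0.17 to 0.07 over 5 members. Cyp2d2 had the largest difference among them, with 5.67, 5.75 and 5.74 in the vehicle rats and 5.62, 5.63 and 5.39 in the NTA rats. All NTA values lay below all vehicle values, but the difference was small, −0.17 (SE 0.11; limma, Benjamini-Hochberg adjusted p = 0.77, interval −0.44 to 0.09). Cyp2e1 stood at 8.51, 8.54 and 8.54 with vehicle and at 8.96, 8.62 and 8.50 with NTA. Its vehicle rats were nearly equal, and NTA replicate 1 was the highest array. The difference was 0.16 (SE 0.14), with an interval from a 0.885-fold to a 1.42-fold level, and 0.03 without NTA replicate 1.

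The other genes of family 2 each had intervals that covered 0. Cyp2j3 and Cyp2j4 act on arachidonic acid. Cyp2j4 stood at 5.46, 4.96 and 5.73 with vehicle and at 5.94, 5.53 and 5.48 with NTA, an overlapping difference of 0.27 (SE 0.23), and its 3 probes lay between 0.25 and 0.27. Across rats it held less well, at 0.05 without vehicle replicate 2, 0.12 without NTA replicate 1 and 0.44 without vehicle replicate 3. Cyp2j3 was at −0.19, with its 4 probes between −0.19 and −0.01. Cyp2r1, a vitamin D 25-hydroxylase, was at −0.09, Cyp2t1 at −0.18 and Cyp2f4 at −0.26. Cyp2s1 was at −0.56 (SE 0.37), with NTA replicate 1 at −2.52 and the other 5 arrays between −1.32 and −0.87. Without NTA replicate 1 its difference was −0.11.

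Cyp3a enzymes hydroxylate testosterone and many drugs, and PXR governs their induction. The male-predominant Cyp3a2 stood at 8.33, 8.66 and 8.88 with vehicle and at 9.05, 8.90 and 8.80 with NTA. The groups overlapped through vehicle replicate 3. The difference was 0.30 (SE 0.17; limma, Benjamini-Hochberg adjusted p = 0.74, interval −0.10 to 0.69). Cyp3a18, also male-predominant, stood at 5.90, 5.74 and 6.22 with vehicle and at 6.58, 6.10 and 6.30 with NTA, with a difference of 0.37 (SE 0.18; limma, Benjamini-Hochberg adjusted p = 0.69, interval −0.06 to 0.80).

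Cyp3a23-3a1, the classic PXR-inducible member, pointed the other way. It stood at 6.33, 6.09 and 6.63 in the vehicle rats and at 6.53, 5.61 and 5.43 in the NTA rats. NTA replicates 2 and 3 were the lowest arrays, and NTA replicate 1 lay among the vehicle rats. The difference was −0.50 (SE 0.31), with an interval of −1.23 to 0.24, so an induction above 1.18-fold lay outside it. The difference was −0.83 without NTA replicate 1 and −0.28 without NTA replicate 3. The female-predominant Cyp3a9 stood at 4.34, 4.04 and 4.22 with vehicle and at 4.51, 3.62 and 3.97 with NTA. NTA replicate 1 was again the highest of its group, and the groups overlapped at a difference of −0.17 (SE 0.23). Cyp3a62 was at 0.29 (SE 0.28).

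Vehicle replicate 3 bore on the values of members in each family. Without it the difference of Cyp1a2 went from 0.38 to 0.15 and that of Cyp4a2 from 0.47 to 0.95. With the 2 remaining vehicle rats, 5 of the 46 members had an unadjusted p under 0.05 in limma. This was the largest count among the fits with 1 array left out, which ran from 1 to 5. Among these 5 were 0 of the 2 members named from all arrays. In that comparison 7.91% of all features had an unadjusted p under 0.05 in either direction, with the higher ones not counted apart. There 0 members passed the adjusted threshold, which 0.0198% of all features did. The 5 were Cyp2c12 at 0.94 (SE 0.22), Cyp2b2 at 0.72 (SE 0.22), Cyp3a18 at 0.51 (SE 0.17), Cyp3a2 at 0.42 (SE 0.15) and Cyp2c11 at 0.37 (SE 0.14). Their Benjamini-Hochberg adjusted p in limma ran from 0.496 for Cyp2c12 to 0.614 for Cyp2c11.

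**Figure D3:**
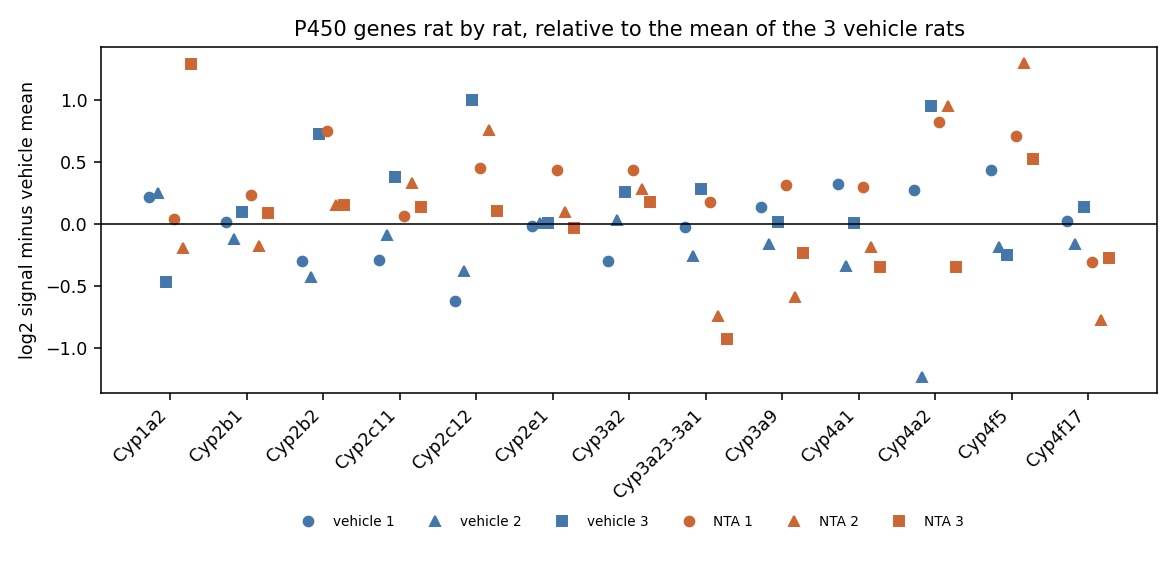
Log2 signal of 13 members in each of the 6 rats, minus the mean of the 3 vehicle rats (vertical axis; blue vehicle, orange NTA, marker shapes give the replicate number). The colours are interleaved for 11 of the 13 genes and separate for Cyp4f5 and Cyp4f17, the members with an unadjusted p under 0.05 in limma. Cyp2d2, whose groups did not overlap either, is not shown, and the groups did not overlap for 13.6% of all features.

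CAR and PXR act through regulators and targets that were listed apart from the P450s. Among 15 measured receptors and regulators, 0 passed in limma and 1 was higher at an unadjusted p under 0.05. It was Nr1i3, which encodes CAR itself, with 2.07, 2.32 and 3.10 in the vehicle rats and 3.16, 3.06 and 3.56 in the NTA rats. The groups overlapped through vehicle replicate 3. The difference was 0.76 (SE 0.28; limma, Benjamini-Hochberg adjusted p = 0.62), and the 4 probes of Nr1i3 gave 0.76 to 1.02. Nr1i2, which encodes PXR, was at −0.12, Rxra, their shared partner, at 0.29 and the liver factor Onecut1 at 1.16 (SE 0.52).

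Of 17 CAR and PXR targets outside the P450s, 0 passed in limma, 3 were higher at an unadjusted p under 0.05 and 13 lay above 0, with a median of 0.30. Over all features 3.66% were higher at that p and 43.9% lay above 0. The aldo-keto reductase Akr7a3 was at 1.60 (SE 0.27), the conjugate exporter Abcc3 at 1.36 (SE 0.38) and the glutathione transferase Gstm1 at 0.41 (SE 0.14). In each of these 3 genes every NTA rat lay above every vehicle rat, as in 5.57% of all features. They were named for their small p, which favours such a separation. The groups overlapped in other genes of the list, such as Abcc2, Abcb1b, Alas1, Aldh1a1 and Akr1b7, though not in Abcb1a. Several genes of this list, these 3 among them, also answer to NRF2. The RNA of Nfe2l2, which encodes NRF2, was at −0.33. The arrays read RNA only, so NRF2 protein and its activity were not measured, and a part of NRF2 in these values was not tested. The difference between these targets and the P450s was not tested. The electron and heme supply of the P450s gave 0 calls among 10 genes in limma, 0 at an unadjusted p under 0.05. The reductase Por, which feeds electrons to every microsomal P450, was at −0.20 (SE 0.14), cytochrome b5 (Cyb5a) at 0.18 and Fech, the last enzyme of heme synthesis, at 0.27.

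Cyp4a enzymes hydroxylate the far end of fatty acid chains and are induced through PPARA. Their genes, pseudogenes aside, form a cluster in the order Cyp4a8, Cyp4a2, Cyp4a2l1, Cyp4a3, Cyp4a1, and Cyp4a2l1 had no probe. In that order 4, 3, 2 and 0 annotated genes lie between neighbours. The upstream sequences of Cyp4a2, Cyp4a3 and Cyp4a8 are printed because the brightest probes of these genes were low in the same rats. The table held no entry for Cyp4a1. They are from RefSeq in GRCr8, all on the minus strand, at chr5:134170909-134171158, chr5:134352269-134352486 and chr5:133970227-133970476. Capitals mark AGGTCA, a core that PPARA and other nuclear receptors bind, searched on both strands.
Cyp4a2: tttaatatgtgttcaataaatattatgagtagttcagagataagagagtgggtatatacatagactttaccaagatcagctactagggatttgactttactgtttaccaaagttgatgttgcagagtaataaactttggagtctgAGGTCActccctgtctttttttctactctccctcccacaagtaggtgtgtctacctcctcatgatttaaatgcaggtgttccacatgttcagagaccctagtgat
Cyp4a3: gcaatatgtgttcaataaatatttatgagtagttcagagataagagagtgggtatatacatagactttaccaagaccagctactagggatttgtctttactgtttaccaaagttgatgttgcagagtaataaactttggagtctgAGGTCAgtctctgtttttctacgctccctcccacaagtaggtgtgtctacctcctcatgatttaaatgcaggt
Cyp4a8: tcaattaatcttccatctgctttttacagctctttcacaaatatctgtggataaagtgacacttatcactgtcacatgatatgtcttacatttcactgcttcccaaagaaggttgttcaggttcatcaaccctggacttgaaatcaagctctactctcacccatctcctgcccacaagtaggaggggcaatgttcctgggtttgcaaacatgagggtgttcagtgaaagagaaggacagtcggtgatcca

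Cyp4a2 and Cyp4a3 were identical in 94.6% of 222 aligned columns, and each held AGGTCA once, while the window of Cyp4a8 held none. Of the 52 members, 45 had an upstream sequence in the RefSeq table. Motifs were counted in the 250 bases before each start, not trimmed to an outermost start. AGGTCA occurred in 14.1% of all 33469 such windows, and in 16 of the 47 windows of members. Of the 47, 2 belong to a further start of a gene, and Cyp2r1 holds 2 of the 16. Windows of close copies, such as Cyp4a2 and Cyp4a3, are not independent. The share in members was not tested against that of all windows. The motif DR1, a direct repeat of AGGTCA with 1 base between the copies, was searched as an exact match only. It occurred in 0.0508% of all windows and in 0 of the members'. With so rare a match, the 0 cannot show that the members lack such repeats. Looser repeats and bases further upstream were not searched. A match in letters is not a bound site.

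Cyp4a2 stood at 8.91, 7.40 and 9.58 in the vehicle rats and at 9.45, 9.58 and 8.28 in the NTA rats, a span of 2.18 that was the widest of the members tested. Vehicle replicate 2 and NTA replicate 3 were the lowest arrays, 1 in each group. The difference was 0.47 (SE 0.61; limma, Benjamini-Hochberg adjusted p = 0.88, interval −0.98 to 1.92), and −0.14 without vehicle replicate 2. The second probe of Cyp4a2 gave 0.51. Cyp4a8 stood at 7.96, 6.38 and 8.24 with vehicle and at 8.27, 8.42 and 7.13 with NTA, low in the same rats, with a difference of 0.41. Cyp4a3 stood at 8.12, 7.75 and 8.73 with vehicle and at 8.61, 8.76 and 7.87 with NTA, with a difference of 0.22 (SE 0.32). It too was lowest in vehicle replicate 2 and NTA replicate 3. Without vehicle replicate 2 the differences of Cyp4a3 and Cyp4a8 were −0.01 and −0.16.

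Cyp4a1, the member most used as a PPARA readout, stood at 7.61, 6.95 and 7.30 with vehicle and at 7.59, 7.10 and 6.94 with NTA. Its lowest arrays were also NTA replicate 3 and vehicle replicate 2, but the 6 arrays spanned only 0.67. The difference was −0.08 (SE 0.23; interval −0.63 to 0.48). The probes of Cyp4a8 disagreed: a second gave −0.26, and one that was above background on 2 of the 3 NTA arrays gave −0.13. Of 20 PPARA targets outside the P450s, 0 passed in limma, 1 was higher and 2 were lower at an unadjusted p under 0.05, and the median was −0.05. Their mean level too was lowest in vehicle replicate 2, at 4.79, and NTA replicate 3, at 4.98, against 5.10 to 5.43 in the other rats. The fatty acid transporter Cd36 was at 1.52 (SE 0.34), with every NTA rat above every vehicle rat, the acyl-CoA dehydrogenase Acadm at −0.28 and the lipid droplet protein Plin2 at −0.27. Ppara itself was at 0.04 (SE 0.28).

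The largest differences in either direction among family 4 outside Cyp4a were in Cyp4f and Cyp4b1. Cyp4f enzymes hydroxylate leukotrienes and fatty acids. Cyp4f5 stood at −1.06, −1.68 and −1.74 in the vehicle rats and at −0.78, −0.20 and −0.97 in the NTA rats. All NTA values lay above all vehicle values. The 1.79-fold difference, 0.84 (SE 0.27), had the smallest p of the members and rank 935 among all features (limma, Benjamini-Hochberg adjusted p = 0.56, interval 0.20 to 1.48). Its second probe gave 0.35, with −2.31, −3.08 and −3.15 in the vehicle rats and −2.62, −2.53 and −2.36 in the NTA rats. On that probe vehicle replicate 1 was the highest array, so the groups overlapped.

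Cyp4f17, the gene next to Cyp4f5 in the annotation, pointed the other way. It stood at −1.11, −1.30 and −1.004 with vehicle and at −1.44, −1.91 and −1.41 with NTA, all NTA values below all vehicle values. The difference was −0.45 (SE 0.17; limma, Benjamini-Hochberg adjusted p = 0.62, interval −0.86 to −0.04). Its second probe gave −0.23, with −1.70, −2.13 and −1.78 against −2.16, −1.74 and −2.39, an overlap. Each gene lost its unadjusted p under 0.05 when some arrays were left out. Cyp4f5 lost it without vehicle replicate 2 (0.75) or 3. Cyp4f17 lost it without vehicle replicate 1 (−0.44) or 3 and without NTA replicate 2 (−0.29). Without vehicle replicate 3 the differences were 0.72 for Cyp4f5 (limma, unadjusted p = 0.057) and −0.38 for Cyp4f17 (unadjusted p = 0.099).

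Cyp4b1, an enzyme best known from lung, stood at −1.48, −1.62 and −1.32 with vehicle and at −1.34, −0.92 and −0.29 with NTA. NTA replicates 2 and 3 were the highest arrays, and NTA replicate 1 lay just below vehicle replicate 3. The difference was 0.63 (SE 0.26; limma, Benjamini-Hochberg adjusted p = 0.66, interval −0.01 to 1.26). The bright Cyp4f genes differed less: Cyp4f4 was at 0.16, Cyp4f1 at −0.15, Cyp4f6 at −0.05 and Cyp4f40 at −0.07. Cyp4f18 was at 0.31 (SE 0.25), and Cyp4v3 was at −0.14 on its brightest probe and 0.02 on the other.

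P450s outside families 1 to 4 were listed apart. Of those measured, 9 lay above 0, with a median of 0.11, and 43.9% of all features lay above 0. Of 15 measured, 1 passed in limma: Cyp26a1, which breaks down retinoic acid, rose from −2.44, −2.52 and −2.44 with vehicle to −1.02, −0.997 and −0.94 with NTA (log2 1.48, SE 0.09; Benjamini-Hochberg adjusted p = 0.010). With any 1 array left out its limma adjusted p was 0.065 to 0.114, past the threshold in none of those 6 fits, while the difference stayed at or above 1.45. Another 3, Cyp26b1 at 2.24 (SE 0.51), the thromboxane synthase Tbxas1 at 0.91 and the sterol demethylase Cyp51 at 0.68, had an unadjusted p under 0.05. With Cyp26a1 that made 4 of 15 higher at that p, where 3.66% of all features were. The difference between these P450s and the members was not tested.

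**Figure D4:**
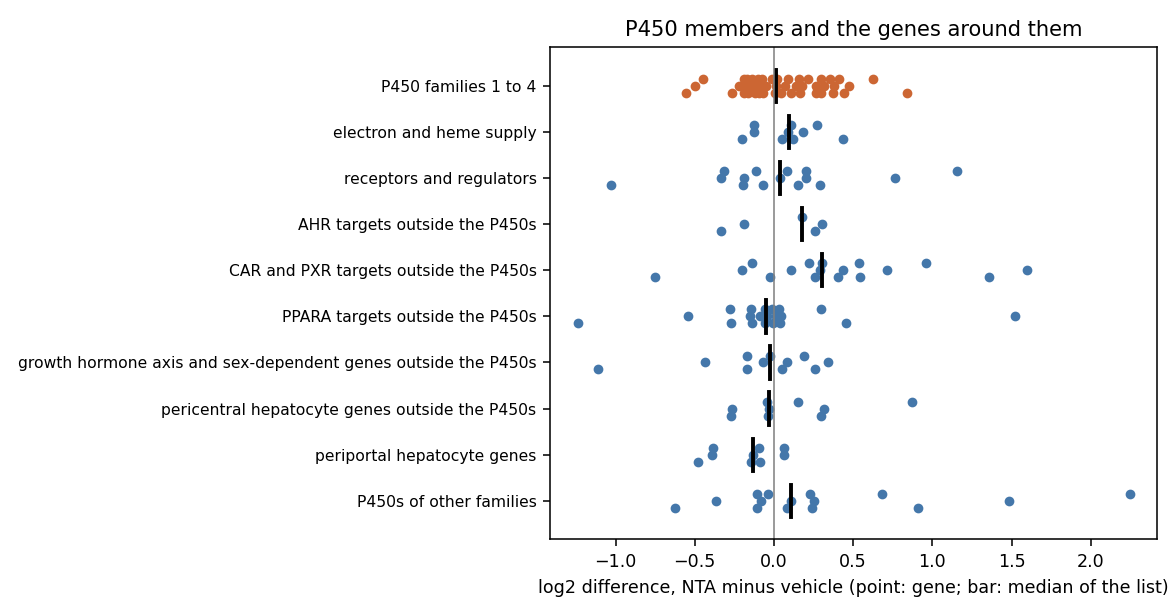
Log2 difference between NTA and vehicle for the 46 members tested (orange) and for the genes of 9 related lists (blue), with the median of each list as a bar. Members run from −0.56 to 0.84 around a median of 0.02, and CAR and PXR targets outside the P450s have a median of 0.30.

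Many P450s are made near the central vein of the liver lobule, so genes marking that zone and its opposite were listed. Among 9 measured pericentral genes 0 passed in limma, and the ammonium transporter Rhbg was the 1 gene higher at an unadjusted p under 0.05, at 0.87 (SE 0.28). Glutamine synthetase (Glul) was at 0.32 and Oat at −0.26. Among 9 periportal genes 0 passed and 1 was lower at an unadjusted p under 0.05, Hsd17b13 at −0.39 (SE 0.16). Hal was at −0.48 and Cps1 at −0.14.

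Levels of markers of other cells are given beside the P450 values. The mean level of 10 hepatocyte markers was 8.73 to 8.79 in the vehicle rats and 8.55 to 8.67 in the NTA rats, and 2 of 10 lay above 0 in the difference. For 4 measured endothelial markers it was 1.67 to 1.87 with vehicle and 2.07 to 2.29 with NTA, with 4 of 4 above 0. For 3 erythroid markers it was −0.65 to −0.20 and 0.18 to 0.58, with 3 of 3 above 0. For 2 neutrophil markers it was −1.50 to −0.09 and −0.09 to 1.12, while Mpo and Elane could not be measured. Kupffer cell markers ranged from 1.48 to 2.49 with vehicle and from 2.22 to 3.09 with NTA, with 6 of 6 above 0. The 2 measured B cell markers were both above 0. Lists of cholangiocytes, stellate cells and T and NK cells had 4 of 5, 2 of 6 and 2 of 3 genes above 0. In all these lists 0 genes passed in limma, and at an unadjusted p under 0.05 there were 3 of 4 endothelial, 1 of 6 Kupffer cell, 1 of 3 erythroid, 2 of 2 neutrophil and 2 of 2 B cell markers, all higher, where 3.66% of all features were. Lower were 1 of 10 hepatocyte markers and 1 of 2 intestinal markers, Fabp2 at −0.72, where 3.91% of all features were. Their part in the P450 values was not tested.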

How the data were processed

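Total liver RNA of 6 rats was labelled with Cy3. Per the file headers, the authors quantified the images with Agilent Feature Extraction 10.7.1.1 (10.7 per the submitters' processing notes) on array design 035170, and the deposited processed signal is a linear intensity after background subtraction. The deposited series table is a linear ratio, the processed signal over the array's 75th percentile, which 100.0% of probes matched within 0.0001 plus 0.2%. Medians of its columns are 0.098, 0.0976 and 0.0986 (vehicle), then 0.0959, 0.0999 and 0.0969 (NTA).

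From the scanner files, log2 processed signal minus the log2 75th percentile over 61657 non-control probes was used, with 1 to 14 probes per array flagged non-uniform set to missing. The number of arrays limits the precision. Probes were named by unversioned accession through RefSeq's table (GRCr8): 27460 had 1 symbol and 34197 none. Features were the brightest probe of each gene and every unnamed probe, well above background on all 3 arrays of a group. NTA was compared with vehicle on all 30353 features in limma 3.58.1 (R 4.3.3; lmFit, eBayes, two-sided, Benjamini-Hochberg, threshold 0.05), a procedure tested on simulated data. Intervals are limma's 95% intervals, without adjustment. An exact permutation test of 3 against 3 cannot pass 0.05 and was not run. Nothing in the labels says that replicate numbers pair rats.

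The members and lists were chosen with earlier results of these data known. Values on every array are given for members with an adjusted or unadjusted p under 0.05 and for the member with the largest difference in each subfamily of several. They are also given for 11 reference members, except Cyp1a1, which did not pass the filter. Further members, such as Cyp3a18, Cyp4b1 and Cyp2b3, and single probes were chosen after their values were seen. From each pathway list up to 3 genes with the smallest p are named; Nr1i2 and Ppara were named beyond that rule. Normexp used the median spot signal, since the scanner files held no mean signal column. Other alternatives were scaling, filters, probe averaging, the variance model, slide, scan day, the replicate block, the series table and leaving out each array.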

Additional observations from a re-analysis of the deposited data

How the results depend on the processing

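The 0 calls among the members held under all 17 alternatives to the fit reported, of which scan day as a block and leaving out vehicle replicate 3, the only array of its day, give the same values, with limma's unadjusted count between 1 and 5. That count was 4 with quantile normalization and 5 with scan day as a block, against 2, and 1 to 5 when an array was left out: 1 without vehicle replicate 2, 4 without NTA replicate 1 and 5 without vehicle replicate 3. Over all features the 9 calls became 0 with the replicate block (2321 at an unadjusted p under 0.05) and 1 to 8 with an array left out, 4 without NTA replicate 1 and 1 without NTA replicate 2. The block gave the members 0 calls and 3 at an unadjusted p under 0.05. Same-numbered arrays deviated together at r = 0.17, −0.01 and −0.07, and differently numbered ones at −0.15 to 0.15. These correlations cannot settle whether the numbers pair rats, and the labels do not say so. The members' median ran from −0.03 to 0.08 when an array was left out and was −0.01 without a filter and −0.00081 with probes averaged per gene. Of the members given array by array under the rule, Cyp4a1 turned direction with normexp (0.13) and Cyp2a1 with the mean of its probes (−0.0072). Directions of the other members under alternative processing were not listed. With an array left out, the difference turned sign in 20 of the 46 members. Among the members given array by array under the rule, Cyp1a2 ran from −0.076 to 0.66, Cyp2b1 from −0.046 to 0.16, Cyp3a9 from −0.41 to 0.041, Cyp4a1 from −0.27 to 0.085 and Cyp4a2 from −0.14 to 0.95. The causes were not tested. With 3 rats a group, members with wide spread, such as Cyp4a2, had intervals reaching beyond 2-fold.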
